A study of Mus musculus with 10 samples.

Results

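The extracellular mesh known as the perineuronal net was represented by 10 genes, chosen by name from the classes of molecule that build it. They were the lecticans Acan, Bcan, Ncan and Vcan, the link proteins Hapln1, Hapln2 and Hapln4, the tenascins Tnr and Tnc, and the receptor-type phosphatase Ptprz1. All 10 had 1 identifier each among the 53700 of the count tables, and all 10 were among the 19268 genes tested. They were measured in cortex of female mice aged 4 months by 3′ RNA sequencing, in 5 libraries labelled 5XFAD;Neu cKO and 5 labelled 5XFAD. Every mouse carried the 5XFAD transgenes, human genes with mutations of familial Alzheimer's disease under neuronal Thy1 sequence. The cKO mice came from a cross of floxed Idol with Camk2a-Cre, whose promoter is active mainly in excitatory neurons of the forebrain. The labels name the controls WT and do not say whether they carried a floxed allele or Cre, and all 10 libraries share the one batch label given.

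A perineuronal net is a lattice of matrix that coats the soma and proximal dendrites of some neurons, in cortex chiefly interneurons that express parvalbumin. Hyaluronan chains at the cell surface form its backbone. Lecticans, which are chondroitin sulfate proteoglycans, bind hyaluronan at one end, a link protein locks each of these junctions, and tenascin-R gathers the other ends of the lecticans together. Neurons make some components and glia make others, so bulk cortex RNA mixes several sources, and in such libraries fewer cells of a type and less RNA per cell cannot be told apart.

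Between 4320504 and 7466192 reads per library were counted on genes. Within each group, no 2 libraries agreed within sampling noise (the lowest chi-square was 5.70 per degree of freedom). Mylip, the gene that encodes IDOL, was counted 50, 53, 108, 50 and 45 times in the 5XFAD libraries and 77, 78, 148, 112 and 50 times in those labelled 5XFAD;Neu cKO. Its level was thus not lower in the cKO group (14.8 ± 4.90 CPM against 11.2 ± 2.27, SD, n = 5 per group, exact two-sided permutation test, p = 0.254). Reads of these libraries come from the 3′ ends of transcripts, the labels do not say which exons are floxed, and cells without Cre keep the gene, so this count neither checks nor contradicts the deletion, and the groups are named here by their labels. The excitatory neuron marker Slc17a7 had counts of 770 to 1327. The genes listed for striatum, thalamus and dentate gyrus summed to 337 to 503 CPM in 5XFAD;Neu cKO and 328 to 438 CPM in 5XFAD. Among those listed genes Ppp1r1b averaged 174 CPM and Drd1 113 CPM over all libraries. Whether their reads came from outside cortex was not tested.

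The 10 genes covered a wide span of levels. Values are given in CPM, a gene's count relative to the TMM-scaled size of its library, and because each transcript gives reads near its 3′ end only, they can be set side by side between genes without a correction for length. The order of the mean CPM over all libraries was Ptprz1, Tnr, Bcan, Ncan, Hapln4, Vcan, Hapln1, Hapln2, Tnc and Acan. Ptprz1 stood above Tnr in 10 of 10 libraries and Tnr above Bcan in 10 of 10. Bcan and Ncan did not differ beyond their spread, Bcan being higher in 6 of 10. Ncan exceeded Hapln4 in 10 of 10 with a ratio of mean CPM of 3.95, and Vcan exceeded Hapln1 in 10 of 10. Hapln4 stood above Vcan in 9 of 10, Hapln1 above Hapln2 in 10 of 10 and Hapln2 above Tnc in 8 of 10. Tnc and Acan traded places, with Tnc higher in 5 of 10. By mean CPM Ptprz1 lay at percentile 98.5 of the tested genes and Acan, the lectican most used to mark nets, at percentile 34.1. Depth followed the same order, from 17737 reads in all on Ptprz1 to 155 on Acan.

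**Figure D1:**
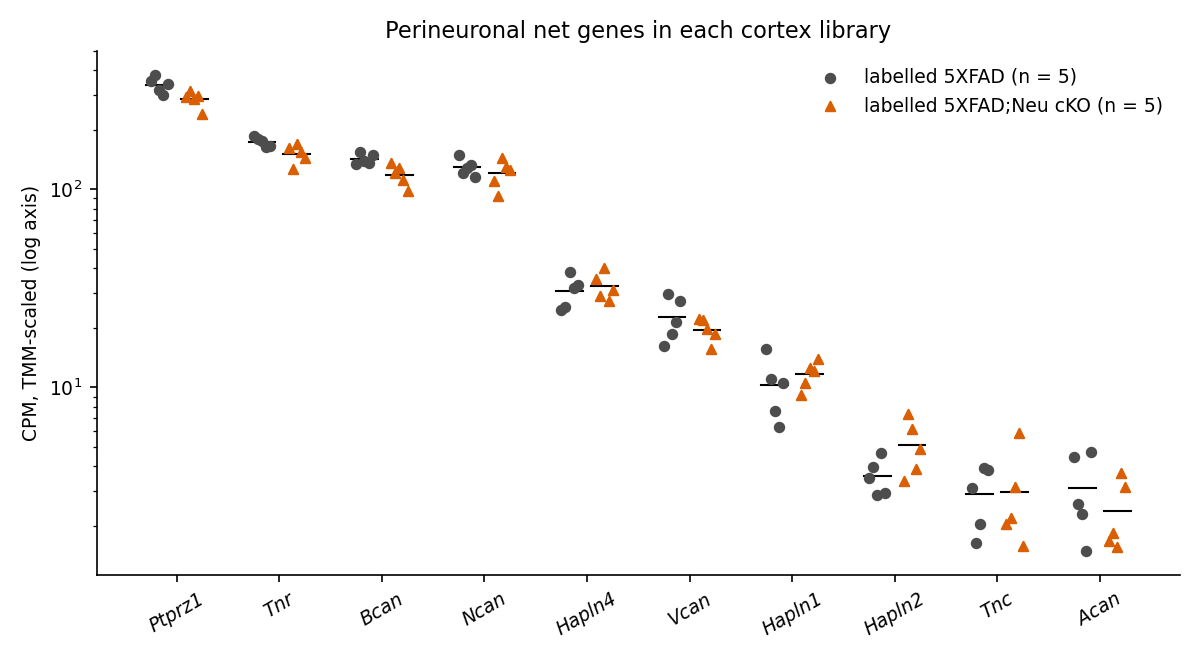
TMM-scaled CPM, on a log axis, of the 10 perineuronal net genes in each of the 5 libraries labelled 5XFAD and the 5 labelled 5XFAD;Neu cKO, with bars at the group means. The points of the 2 groups overlap for all 10 genes, and Ptprz1, Tnr and Bcan have 4 of 5 cKO points under the lowest 5XFAD point. The share of all genes with such a split was not counted.

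None of the 10 passed the test between the groups. With edgeR's quasi-likelihood test and Benjamini-Hochberg adjustment over all genes, 0 of 10 had an adjusted p under 0.05, and DESeq2 called 0 of the 5 for which it gave an adjusted p (not Acan, Vcan, Hapln1, Hapln2 and Tnc). The same threshold was passed by 0.218% of all genes, 0.161% being lower in 5XFAD;Neu cKO. At an unadjusted p under 0.05 there were 3 of the 10, Ptprz1, Bcan and Tnr, all with the lower mean in 5XFAD;Neu cKO, where 7.95% of all genes pass in either direction and 4.01% of all genes pass with that direction. The CPM ranges of the groups were apart for 0 of the 10 and for 1.30% of all genes. Of the 10 estimates 4 were above 0 and 6 below, and their median log2 fold change was -0.15, beside -0.00056 for all genes tested.

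**Figure D2:**
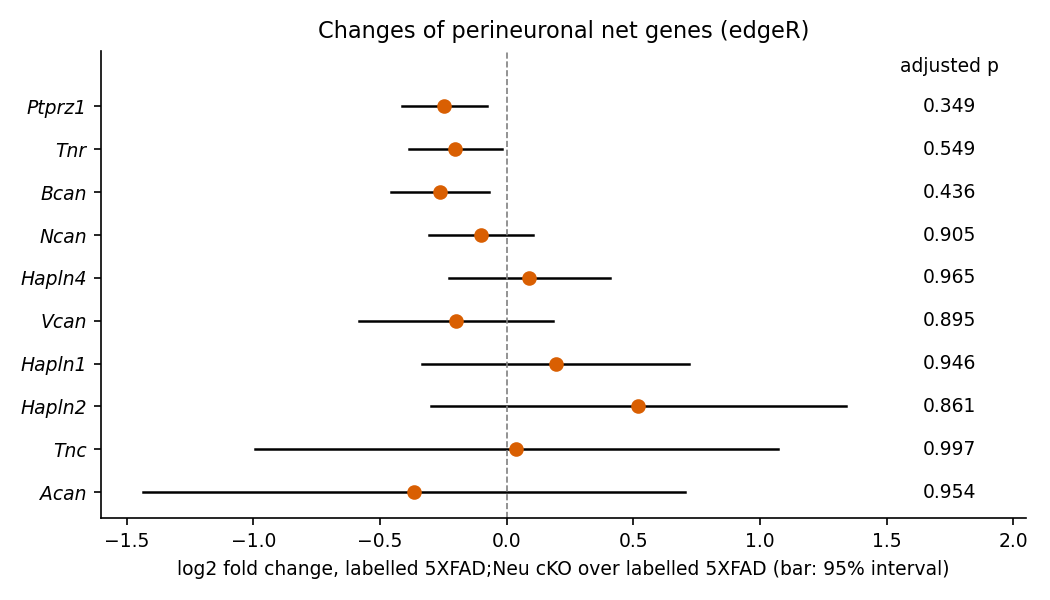
Log2 fold change of each of the 10 genes, 5XFAD;Neu cKO against 5XFAD, with its 95% interval from edgeR. The intervals of Ptprz1, Bcan and Tnr lie below 0 before adjustment, and those of the other 7 include 0.

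The 3 genes with an unadjusted p under 0.05 are also the most abundant of the 10. Their promoters are printed as RefSeq places them, and 3′ reads do not show which start these transcripts used. They are taken from RefSeq as 250 bases before and 50 after the RefSeq start, in the table's build GRCm38.p6, and each matched 1 place in GRCm39. Bcan's window lies inside the gene's annotated span and does not reach its annotated start at 87910177. Ptprz1's window includes its annotated start at 22875358, which is not the RefSeq start used. Capitals mark matches, on either strand, to the motifs searched, which were the TATA box (TATAAA), the CCAAT box (CCAAT), the GC box (GGGCGG) and the E-box (CACGTG).
Ptprz1, chr6:22875251-22875550, plus strand: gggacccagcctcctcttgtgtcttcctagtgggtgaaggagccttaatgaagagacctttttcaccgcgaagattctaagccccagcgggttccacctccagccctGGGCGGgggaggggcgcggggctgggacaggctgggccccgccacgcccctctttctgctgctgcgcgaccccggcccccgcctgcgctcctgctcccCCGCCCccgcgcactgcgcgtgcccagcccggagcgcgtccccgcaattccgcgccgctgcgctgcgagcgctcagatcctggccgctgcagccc
Bcan, chr3:87907614-87907913, minus strand: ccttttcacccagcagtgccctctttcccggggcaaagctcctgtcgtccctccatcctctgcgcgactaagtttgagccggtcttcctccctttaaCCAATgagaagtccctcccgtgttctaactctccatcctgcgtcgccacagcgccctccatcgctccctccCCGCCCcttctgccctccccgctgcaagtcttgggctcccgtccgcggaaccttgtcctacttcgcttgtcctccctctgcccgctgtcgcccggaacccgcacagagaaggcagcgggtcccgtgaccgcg
Tnr, chr1:159351089-159351388, plus strand: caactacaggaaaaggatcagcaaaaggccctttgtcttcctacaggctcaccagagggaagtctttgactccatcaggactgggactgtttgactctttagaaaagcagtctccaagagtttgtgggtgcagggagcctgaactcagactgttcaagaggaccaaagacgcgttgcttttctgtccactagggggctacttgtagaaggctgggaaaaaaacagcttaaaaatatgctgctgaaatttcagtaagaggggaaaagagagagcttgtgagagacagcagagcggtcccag
Ptprz1's window is 71.7% G and C and holds the GC box at positions -143 and -45 from the start, the latter on the other strand. In Bcan's window, 64% G and C, a CCAAT box starts at -153 and a GC box on the other strand at -82. Tnr's window, with 48% G and C, holds none of the 4 motifs. These matches are a description of letters: the GC box is in 35.7% of 32851 promoters, the CCAAT box in 37.4%, the TATA box in 13.6% and the E-box in 7.15%, and the median promoter is 52.7% G and C.

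Ptprz1 encodes the phosphatase receptor also found in soluble form as phosphacan, which binds tenascins and contactins and is made mainly by astrocytes and oligodendrocyte progenitors. It was measured at 352, 379, 317, 300.3 and 339 CPM in the 5XFAD libraries and at 293, 312, 285, 295 and 239 CPM in 5XFAD;Neu cKO libraries. 4 of the 5 cKO libraries lay below the lowest 5XFAD library, and replicate 2, the highest of them, lay above it. The means were 285 ± 27.1 and 337.5 ± 30.7 CPM (SD, n = 5 per group), a log2 fold change of -0.25 (SE 0.08, 95% interval -0.41 to -0.078). The exact two-sided permutation test gave p = 0.0159, where 0.0079 is the smallest possible, and the p adjusted over all genes was 0.349 (edgeR). The estimate was -0.28 to -0.19 when each library was left out in turn, and the highest unadjusted p of these fits was 0.0334, without cKO replicate 5.

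Among the lecticans, Bcan, the brain-specific brevican, was measured at 134, 154, 139, 136 and 149 CPM in 5XFAD and at 136, 120, 127, 111 and 98.3 CPM in 5XFAD;Neu cKO. Here 4 of the 5 cKO libraries lay below all 5XFAD libraries, and replicate 1 lay within their range. The means were 119 ± 14.5 and 142 ± 8.72 CPM, a log2 fold change of -0.26 (SE 0.10, 95% interval -0.46 to -0.07). The exact permutation p was 0.0159 and the adjusted p 0.436 (edgeR). Ncan, neurocan, which is most abundant during development, stood at 149, 122, 128, 132 and 115 CPM in 5XFAD and at 110, 92.5, 144, 129 and 125 CPM in 5XFAD;Neu cKO. The 2 groups of values are interleaved, with a log2 fold change of -0.10 (SE 0.10, 95% interval -0.31 to 0.11, adjusted p = 0.905, edgeR). Leaving out each library in turn moved it between -0.17, without cKO replicate 3, and -0.020, without cKO replicate 2.

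Vcan, versican, which in brain comes largely from oligodendrocyte progenitors, ranged from 16.3 to 29.6 CPM in 5XFAD and from 15.6 to 22.2 in 5XFAD;Neu cKO. Its log2 fold change was -0.20 (SE 0.19, 95% interval -0.58 to 0.18). Acan, aggrecan, the lectican that nets of parvalbumin neurons depend on, was counted 23, 11, 17, 8 and 21 times in 5XFAD and 9, 10, 12, 22 and 22 times in 5XFAD;Neu cKO. At these counts its log2 fold change of -0.37 had a 95% interval of -1.44 to 0.70, and the data are compatible with any difference inside that interval. The lecticans summed to 237 to 293 CPM in 5XFAD;Neu cKO and 287 to 308 CPM in 5XFAD, ranges that overlap and that Bcan and Ncan set for the most part.

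The link proteins had estimates above 0, and each interval included 0. Hapln4, which binds brevican at synapses around the soma, was measured at 24.6, 25.3, 38.2, 31.9 and 32.8 CPM in 5XFAD and at 35.1, 29.1, 40.3, 27.3 and 31.2 CPM in 5XFAD;Neu cKO. The log2 fold change of Hapln4 was 0.09 (SE 0.16, 95% interval -0.23 to 0.41, adjusted p = 0.965, edgeR). Hapln1, cartilage link protein, needed for normal nets, stood at 15.7, 11.03, 7.61, 6.34 and 10.5 CPM in 5XFAD and at 9.16, 10.5, 12.5, 12.1 and 13.9 CPM in 5XFAD;Neu cKO. The spread of Hapln1 in 5XFAD covered the whole range of the cKO libraries, and its log2 fold change was 0.19 (SE 0.26, 95% interval -0.33 to 0.72).

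Hapln2, the link protein of nodes of Ranvier in white matter, was counted 18, 17, 21, 25 and 13 times in 5XFAD and 18, 40, 47, 23 and 34 times in 5XFAD;Neu cKO. In CPM 3 of the 5 cKO libraries lay above the highest 5XFAD library and the other two lay within the 5XFAD range. Its log2 fold change of 0.52 was the largest of the 10 in size, on few reads (SE 0.41, 95% interval -0.30 to 1.34, exact permutation p = 0.103, adjusted p = 0.861, edgeR).

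Of the tenascins, Tnr, which links lecticans to each other and is made mainly by oligodendrocytes and some interneurons, was measured at 186, 180, 175, 164 and 165 CPM in 5XFAD. In 5XFAD;Neu cKO it was measured at 161, 126, 170.1, 154 and 145 CPM. All but replicate 3 of the cKO libraries lay below the lowest 5XFAD library. The means were 151 ± 16.7 and 174 ± 9.64 CPM, a log2 fold change of -0.20 (SE 0.09, 95% interval -0.38 to -0.02). The exact permutation p was 0.0317 and the adjusted p 0.549 (edgeR). In the edgeR fits without one library the unadjusted p stayed under 0.05 in 7 of 10, and the highest was 0.131, without cKO replicate 2. Tnc, tenascin-C, a glial molecule of development and injury, was counted 16, 7, 15, 21 and 17 times in 5XFAD and 11, 12, 24, 35 and 11 times in 5XFAD;Neu cKO, and its log2 fold change of 0.04 had an interval of -0.99 to 1.07.

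Shares within a family do not depend on the scaling of libraries, and none of their differences passed a test. Bcan made up 45.5% ± 4.83 of the lectican counts in 5XFAD;Neu cKO and 47.9% ± 2.55 in 5XFAD, and Ncan 46.0% ± 5.60 and 43.4% ± 4.25. Vcan held 7.56% ± 1.27 and 7.60% ± 1.79, and Acan 0.930% ± 0.401 and 1.04% ± 0.466. Among link proteins, Hapln4 held 65.9% ± 5.09 and 68.5% ± 8.995, Hapln1 23.7% ± 4.01 and 23.3% ± 8.73, and Hapln2 10.4% ± 3.23 and 8.18% ± 2.18. Tnr took 98.1% ± 1.04 and 98.3% ± 0.642 of the tenascin counts. The groups overlapped for all 8 shares, whose exact two-sided permutation p-values ran from 0.262 to 0.984 and, adjusted over the 8, from 0.952 to 0.984.

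**Figure D3:**
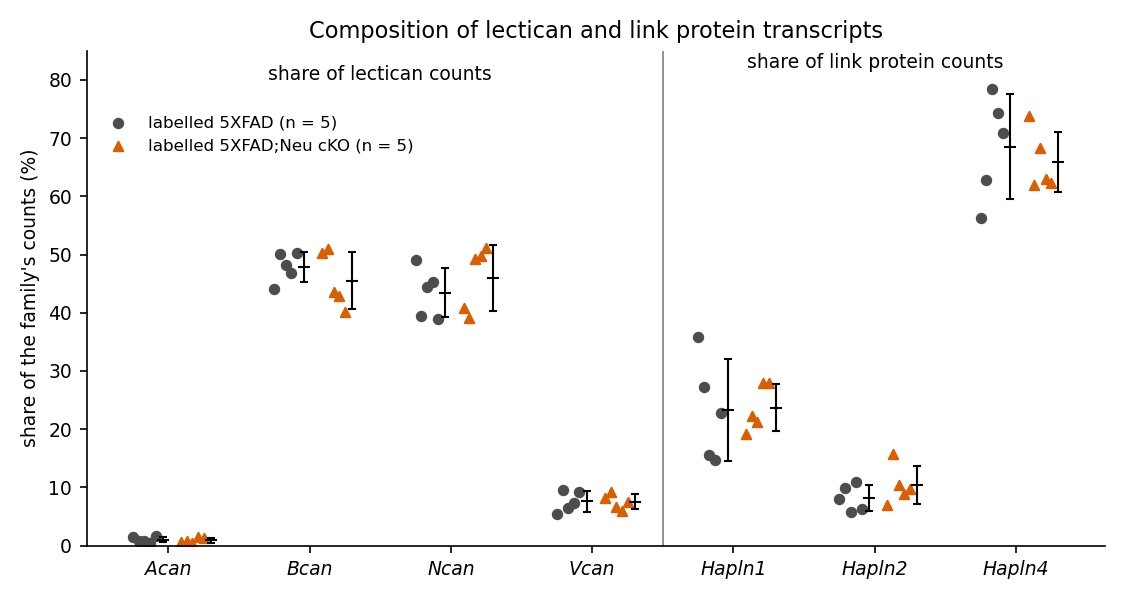
Share of each lectican in the lectican counts and of each link protein in the link protein counts, in percent, for every library, with the mean and SD of each group (n = 5). Bcan and Ncan hold similar shares of the lecticans, Hapln4 holds most of the link protein counts, and the points of the groups overlap throughout.

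Members were also compared across the 10 libraries by their log2 CPM. The 7 with a mean count of at least 30 gave 21 pairs, of which 13 had a positive Pearson's r and 0 passed an adjusted p of 0.05 (permutation tests, 100000 resamples). Bcan and Ptprz1 had the closest relation, r = 0.83 (permutation p = 0.00325, adjusted p = 0.0682) and rho = 0.71 (permutation p = 0.0265, adjusted p = 0.228). It stood at 0.66 without the 2 libraries farthest from the median of Bcan and at 0.65 after centring each group. Ncan and Tnr gave r = 0.73 (permutation p = 0.0194, adjusted p = 0.204) and rho = 0.52 (permutation p = 0.134, adjusted p = 0.443), but r was 0.09 without the 2 farthest libraries, so the relation rests on those. Bcan and Vcan gave r = 0.64 (permutation p = 0.0440, adjusted p = 0.281) and rho = 0.68 (permutation p = 0.0350, adjusted p = 0.228).

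**Figure D4:**
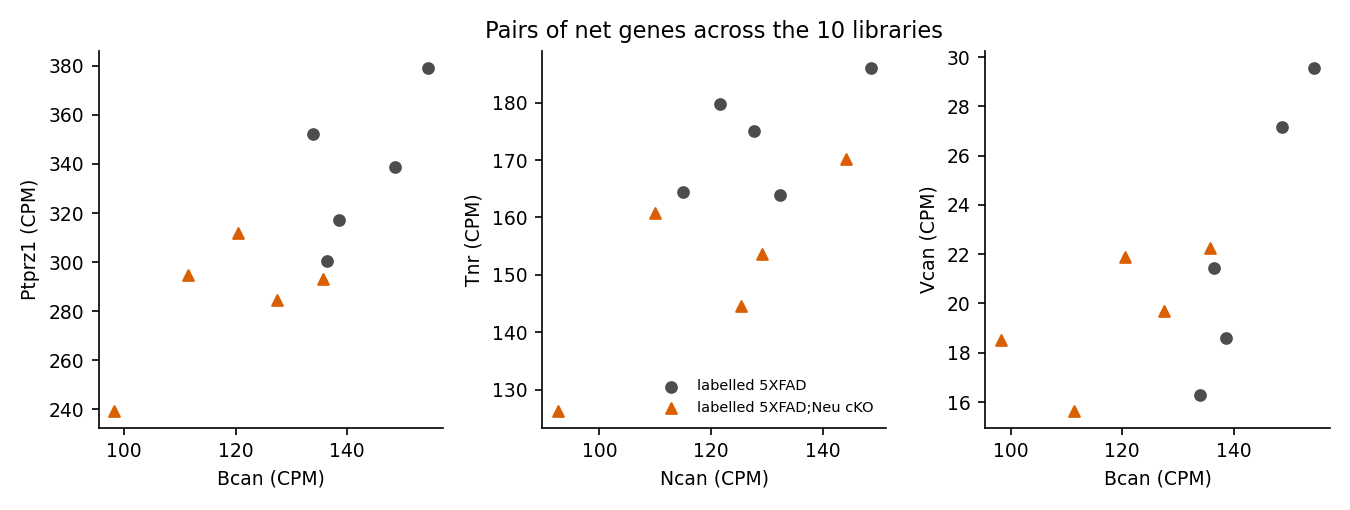
CPM of the 3 pairs of members with an unadjusted p under 0.05, with 1 point for each of the 10 libraries and colour and shape for the group. Bcan and Ptprz1 lie along a line that runs across both groups, and the lowest and highest libraries carry the relation of Ncan and Tnr.

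Each lectican gene has a link protein gene as a neighbour, with 0 protein-coding genes between them in every pair. On GRCm39 Bcan (chr3:87894835-87910177, minus strand) and Hapln2 lie 16.6 kb apart, and Vcan (chr13:89803431-89890814, minus strand) and Hapln1 43.5 kb apart. The estimates of these neighbours had opposite signs, with -0.26 for Bcan beside 0.52 for Hapln2 and -0.20 for Vcan beside 0.19 for Hapln1 as log2 fold changes, and none of the 4 passed the test. Ncan (chr8:70538926-70573523, minus strand) and Hapln4 (chr8:70536106-70543533, plus strand) overlap at their 3′ ends and share 1255 exon bases, all within the last exon block of Ncan. The strand setting of the counting was not given in the sources used here. Depending on it, reads in those bases could be dropped from both genes or kept for one, so the counts of both are uncertain. Across libraries Ncan and Hapln4 gave r = 0.02 (permutation p = 0.952). Acan (chr7:78702964-78764847, plus strand) ends 2 bp from Hapln3, the link protein gene outside the 10. Hapln3 lies on the other strand, so the 3′ ends of these 2 genes face each other. With the strand setting not given, reads at that boundary are uncertain for both. Hapln3 was counted 1, 0, 3, 1 and 1 times in 5XFAD and 10, 16, 1, 14 and 9 times in 5XFAD;Neu cKO. That gene's counts were higher in 4 of 5 cKO libraries than in any 5XFAD library, with replicate 3 of the cKO group as the exception, and its adjusted p was 0.436 (edgeR, unadjusted 0.00973).

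Other genes that make, cut or bind the net were read as lists. Of the hyaluronan synthases and hyaluronidases 7 of 8 were tested, 5 with estimates above 0 and 2 below, and 0 passed. Of the enzymes that build chondroitin sulfate 19 of 20 were tested, 5 above 0 and 14 below, with a median log2 fold change of -0.086 and 0 past the threshold. Of the other binding partners and receptors 19 of 20 were tested, 6 above 0 and 13 below, and 0 passed. In that list the groups were apart for Rtn4rl1, a Nogo receptor family member that binds chondroitin sulfate, at 56.1 ± 7.85 CPM in 5XFAD;Neu cKO and 41.9 ± 2.27 in 5XFAD (log2 fold change 0.42, SE 0.13, adjusted p = 0.248, edgeR).

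Of the proteases that cleave net components and their inhibitors 14 of 15 were tested, 5 above 0 and 9 below, and 1 passed. That was Ctss, cathepsin S, a lysosomal and secreted protease, which fell to 81.7 ± 13.6 CPM from 153.5 ± 27.2 (log2 fold change -0.91, SE 0.11, adjusted p = 5.24e-07, edgeR). Ctss is also in the microglia list, and in brain it is mainly a microglial gene. The median log2 fold change of the protease list was -0.054, and over the alternatives it ran from -0.14 to 0.022.

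**Figure D5:**
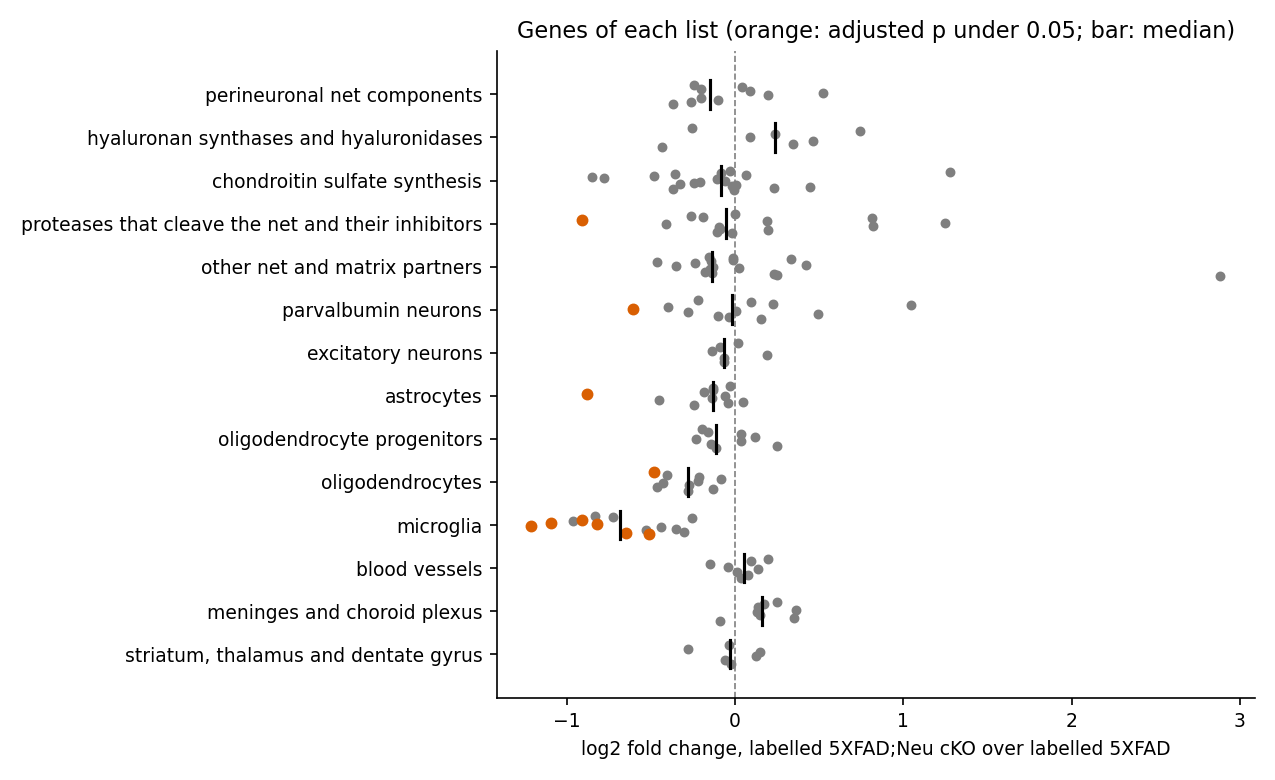
Log2 fold changes of every tested gene in the net, related and cell type lists, with the median of each list marked. The microglia list lies furthest below 0, and the 10 net genes scatter around -0.15 with 0 past the threshold.

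Cell types that make net components were read through marker lists. Of 12 genes listed for parvalbumin neurons, some of them shared with other interneurons (Gad1, Gad2 and Slc32a1), 6 were above 0 and 6 below. 1 passed, Syt2, a synaptic vesicle calcium sensor (log2 fold change -0.61, adjusted p = 0.0388, edgeR). Syt2 kept that call in 5 of the 10 fits that leave out a library (highest adjusted p = 0.246, without 5XFAD replicate 2, edgeR) and lost it with filterByExpr (0.0734). Pvalb itself was at 37.0 ± 6.002 CPM in 5XFAD;Neu cKO and 33.5 ± 10.7 in 5XFAD (adjusted p = 0.909, edgeR), and the 12 genes summed to 887 to 971 and 902 to 977 CPM. Over all libraries Kcnc1 averaged 192 CPM and Gad1 174 CPM, against 35.2 for Pvalb, so the sum does not measure parvalbumin neurons alone. Of 6 excitatory neuron markers 2 were above 0 and 4 below, with 0 past the threshold, and Slc17a7 stood at 178 ± 3.83 and 186 ± 18.6 CPM.

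The microglia, astrocyte and oligodendrocyte lists had most of their estimates below 0, where 50.1% of all genes tested had an estimate below 0. All 14 microglia markers were below 0 and 6 passed, and their sum was 337 to 428 CPM in 5XFAD;Neu cKO and 504 to 736 CPM in 5XFAD. Besides Ctss these were C1qb, C1qc, Tyrobp, Csf1r and Cx3cr1, with log2 fold changes of -1.21, -0.82, -1.10, -0.65 and -0.51. Leaving out a library ended the call of Cx3cr1 in 4 of 10 fits (highest adjusted p = 0.231, without 5XFAD replicate 2, edgeR), of C1qc in 2 (0.0984, without cKO replicate 5) and of Csf1r in 1 (0.0808, without 5XFAD replicate 2). Trem2, whose groups were apart, had -0.96 with an adjusted p of 0.0994 (edgeR). Of 11 astrocyte markers 1 was above 0 and 10 below, and Gfap passed with -0.88 (adjusted p = 0.00202, edgeR), while the list summed to 4226 to 4818 and 4343 to 5053 CPM. Aqp4, the water channel of astrocyte endfeet, was at 79.5 ± 7.09 and 94.0 ± 20.2 CPM (adjusted p = 0.616, edgeR).

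All 10 oligodendrocyte markers were below 0, and Mal passed with -0.48 (adjusted p = 0.0427, edgeR), a call kept in 2 of the 10 fits that leave out a library (highest adjusted p = 0.35, without 5XFAD replicate 2, edgeR) and lost with filterByExpr (0.0989). Their sum was 1875 to 2949 CPM in 5XFAD;Neu cKO and 2118 to 3106 in 5XFAD, and Mog was at 17.1 ± 5.08 and 23.7 ± 4.84 CPM (adjusted p = 0.528, edgeR). Of 9 genes listed for oligodendrocyte progenitors 4 were above 0 and 5 below with 0 past the threshold, their sum being 167 to 231 and 172 to 226 CPM. Olig1, with a mean of 80.3 CPM, Olig2 and Sox10 are also expressed in oligodendrocytes, so that sum does not measure progenitors alone. Pdgfra stood at 27.8 ± 5.61 and 29.9 ± 7.23 CPM. The part of these cell types in the values of Ptprz1, Bcan and Tnr was not tested.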

How the data were processed

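RNA from cortex of 10 mice was read as QuantSeq 3′ libraries. The authors trimmed the reads with bbduk, aligned them with STAR 2.7.3a to GRCm39 and assigned them to Ensembl genes by htseq-count. HTSeq 0.9.1 is the version in the submitters' processing notes, and the paper gives a different one. The deposited counts are whole numbers without normalization, so intervals cover the spread between mice and counting error.

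Groups were tested by edgeR 4.0.16 under R 4.3.3 (glmQLFit, glmQLFTest, TMM), keeping genes with a total above 10 and adjusting p over 19268 genes by Benjamini-Hochberg. Alternatives were DESeq2 1.42.0 and its size factors, filterByExpr, no filter, a robust fit, no mitochondrial genes, a replicate block and each library left out. The steps were tested on simulated data. Exact permutation tests of log2 CPM (prior count 2) used 252 relabellings. Names and places come from GENCODE, and 52610 identifiers had a symbol. Reads on no gene made up 31.3% to 39.9% and entered no test.

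The members, lists and alternatives were chosen with earlier results of these data known. Named are all members, Mylip, Hapln3, a defining marker per cell type, and in each related list the genes past the threshold and up to 3 with the largest change among those whose groups do not overlap.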

Additional observations from a re-analysis of the deposited data

Results flagged for a closer look

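Of 72 sets of 5 libraries checked for one that stands far from the rest, 2 were flagged, and chance flags about 5% of such sets. Csf1r, the receptor of a microglial growth factor, was at 78.4 CPM in 5XFAD replicate 2, while the other 4 libraries of that group lay between 53.9 and 58.7. Without that library its adjusted p was 0.0808 (edgeR), above the threshold of 0.05. The share of Tnr in the tenascin counts was 96.3% in 5XFAD;Neu cKO replicate 4, while the other 4 lay between 98.2% and 98.9%, and Tnc was counted 35 times in that library, its highest value of the 10.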

How the results depend on the processing

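In all 17 alternatives 0 of the 10 members passed the threshold (DESeq2 gave 5 of them no adjusted p), and the median of their log2 fold changes stayed between -0.19 and -0.082. For Ptprz1, Bcan and Tnr the smallest adjusted p over all settings came from DESeq2, at 0.117, 0.169 and 0.295. The number of genes called among all tested was 42. It was 73 with DESeq2, 103 with no filter on low counts and 26 to 72 when one library was left out, with 26 without 5XFAD replicate 2, 27 without 5XFAD;Neu cKO replicate 4 or 5 and 72 without 5XFAD;Neu cKO replicate 1. With the replicate number as a block 112 genes were called. Same-numbered libraries did not deviate together (correlations of -0.0522 to 0.0224, with 1 of 5 libraries closest to its own number). These values showed no pairing of the mice by number but cannot exclude it, and the labels do not say.

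The log2 fold change of Tnc turned with the replicate block (-0.024) and, within a range of -0.36 to 0.20 over the libraries left out, without 5XFAD replicate 2 (-0.10), 5XFAD replicate 3 (-0.072) or 5XFAD;Neu cKO replicate 4 (-0.36). That of Hapln4 turned without 5XFAD;Neu cKO replicate 3 (-0.00041, with a range of up to 0.19). The other 8 kept their sign, but over the libraries left out Acan ran from -0.57 to -0.17, Vcan from -0.30 to -0.088 and Hapln1 from 0.062 to 0.40. Among the shares, in percentage points, Vcan turned as a log2 ratio (0.012) and, with a library left out, ran from -0.60 to 0.46. With a library left out Hapln1 ran from -1.68 to 3.58, Acan from -0.25 to 0.024 and Tnr from -0.46 to 0.19, so that their signs turned as well, and the shares of Bcan, Ncan, Hapln2 and Hapln4 kept theirs. These causes were not tested. For Acan, Tnc and Hapln2, counted 155 to 256 times in all, depth limits what can be seen.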

Other observations

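Marker lists of blood vessels, of meninges and choroid plexus, and of striatum, thalamus and dentate gyrus were read in the same way. Of 8 blood vessel markers 6 had estimates above 0 and 2 below, with 0 past the threshold and sums of 358 to 392 CPM in 5XFAD;Neu cKO and 333 to 385 CPM in 5XFAD. Of 8 markers of meninges and choroid plexus 7 were above 0 and 1 below, with 0 past the threshold, and the sums ran from 62.9 to 205 CPM and from 73.0 to 134 CPM. Of 6 markers of striatum, thalamus and dentate gyrus 2 were above 0 and 4 below.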
